A study of Mus musculus with 9 samples.

Results

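CC chemokines are small secreted proteins that recruit leukocytes, and 9 of them were examined in RiboSeq of LPS-treated macrophages. RiboSeq counts the mRNA fragments that ribosomes protect from nuclease, so that a gene's value depends both on its mRNA and on how many ribosomes each mRNA carries. The 9 genes were Ccl2, Ccl3, Ccl4, Ccl5, Ccl6, Ccl7, Ccl9, Ccl12 and Ccl22, which were chosen by name among the 16921 genes of the deposited table. Ccl22 had a mean fitted value under 10 and was not tested, which left 8 of the 9 genes among the 10202 that passed this filter.

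All cells were immortalized bone marrow derived macrophages (BMDMs) from TTP-deficient mice. The primary cells had been differentiated with M-CSF and immortalized with human c-myc and human hRas G12V, and cells positive for the macrophage surface proteins that Itgam and Emr1 encode were then transduced with doxycycline-inducible vectors. Tristetraprolin (TTP, gene Zfp36) binds AU-rich elements in mRNAs and lowers their stability and translation, and the kinase MK2 phosphorylates it after LPS. GFP-only macrophages expressed GFP, GFP-TTP macrophages expressed the wild-type protein fused to GFP, and GFP-TTP-AA macrophages expressed a fusion with the substitutions S52A and S178A, which remove the serines that MK2 phosphorylates. Every group received doxycycline (1 µg/ml) for 6 h and LPS (1 µg/ml) for 1 h, so that LPS treatment itself is not compared here. Each group had 3 libraries, numbered 1 to 3, and was 1 transduced line, so that the construct and the line cannot be told apart. Nothing in the labels says that the 3 libraries of a group came from separate cultures.

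The deposited values, named normalized counts, were found to be the fitted values of the authors' DESeq2 model. On the log2 scale each gene's values equalled a condition term plus a replicate term, plus a constant of each library shared by all genes. The residual SD was 5.92e-14, against an SD of 4.79 for the log2 values themselves. The replicate number stands for the library date of that model, and its term is the same in each condition. The spread of the 3 values of a group is therefore not an observed replicate error. Errors were taken from the standard errors (SE) in the authors' deposited comparison tables. Per library the fitted values added up to 2570292 at the lowest and 12804501 at the highest, and values given below are divided by size factors of between 0.415 and 2.12. Macrophage markers were present in all groups, and 9 of the 10 with a row passed the filter. The T cell, B cell and fibroblast markers with a row (4, 2 and 2 genes) all lay under the filter, and the mast cell markers had no row. Zfp36, which the labels predict to be higher with the TTP constructs, had a level of 459 with GFP, 927 with wild-type TTP and 1535 with the mutant. The level of 459 in the TTP-deficient GFP-only cells is a fitted value. The model shrinks log2 fold changes toward 0, which draws the levels of the groups together. How many Zfp36 footprints these cells had, and which part of the gene they cover, therefore cannot be seen in these values per gene. Zfp36 was 1.66-fold higher with the mutant than with wild-type TTP (log2 fold change 0.73, SE 0.25, adjusted p = 0.0394). From its SE, the part of this change that shrinkage kept was estimated at either 47.9% or 52.1%, so that the unshrunken change is larger.

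CC chemokines take their name from a pair of adjacent cysteines near the start of the mature protein, and they signal through G protein-coupled receptors. Ccl2, Ccl7 and Ccl12 are the monocyte chemoattractants that act on Ccr2. Ccl3, Ccl5, Ccl6 and Ccl9 act on Ccr1, and Ccl4 is the closest relative of Ccl3 among the 9 genes. Ccl22 acts on Ccr4 and attracts regulatory T cells. Several of these mRNAs are induced rapidly by LPS in macrophages and carry the AUUUA pentamer of AU-rich elements.

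The cysteine codons show the shared feature of the family, and they are printed for the 3 monocyte chemoattractants and for Ccl4. All coordinates are on GRCm38, the assembly that mm10 also names, and the sequences are from the GENCODE vM21 transcripts. Each window holds 30 coding bases in the direction of the gene, with the adjacent cysteine codons in capitals.
Ccl2 (chr11:82036494-82036523, plus strand): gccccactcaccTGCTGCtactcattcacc
Ccl7 (chr11:82046526-82046555, plus strand): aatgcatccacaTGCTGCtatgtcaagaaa
Ccl12 (chr11:82102622-82102651, plus strand): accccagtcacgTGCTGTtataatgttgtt
Ccl4 (chr11:83663470-83663499, plus strand): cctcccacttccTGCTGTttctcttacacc

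The closest pairs over the whole coding sequence were Ccl3 and Ccl4 with 191 of 273 aligned bases identical, Ccl6 and Ccl9 with 239 of 345 and Ccl7 and Ccl12 with 199 of 291. Footprints are short and the authors kept up to 2 alignments per read, so that near-identical genes could share reads. No 28-base window of any of the 9 coding sequences was found unchanged in a transcript of another gene. With up to 2 mismatches allowed, 22 windows of Ccl6 (6.79%) matched Ccl9 and 22 of Ccl9 (6.43%) matched Ccl6, and the other 7 genes had no such window with any member. The values of Ccl6, which lay far below those of Ccl9, are therefore uncertain by the reads that these windows could share.

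TTP is known to bind AU-rich 3′UTR sequence, and a stretch of 26 bases is printed for the genes that passed a test in any comparison and for Ccl4 and Ccl12, which share the longer motif TATTTAT with Ccl3. ATTTA, written as DNA, is in capitals, and TATTTAT contains it. Motifs were searched on the transcript strand only.
Ccl7 (chr11:82047256-82047281, plus strand): ttaatatttttATTTAattagccatg
Ccl12 (chr11:82103278-82103303, plus strand): ggcagtgtgatATTTAttatgatatc
Ccl3 (chr11:83648005-83648030, minus strand): tatttgtgactATTTAttctgaaaga
Ccl4 (chr11:83664543-83664568, plus strand): ttatttctattATTTAtgttttagtt

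ATTTA occurred 5 times in the 3′UTRs of Ccl3, Ccl9 and Ccl12, 4 times in that of Ccl6, 2 times in those of Ccl4, Ccl7 and Ccl22, and 1 time in that of Ccl2. The Ccl5 3′UTR held none. Length differs widely, since the 5 copies of Ccl12 lay in 167 bases, those of Ccl3 in 409 and those of Ccl9 in 2465. Among genes with a 3′UTR within 25% of the same length, 25.5% held ATTTA at the length of Ccl12, 45.4% at that of Ccl3 and 93.8% at that of Ccl9. TATTTAT was found 1 time each in Ccl3, Ccl4, Ccl12 and Ccl22. Over all 9983 genes with a 3′UTR that passed the filter, 68.1% held ATTTA and 28.7% held TATTTAT. These are matches of letters and no measure of binding.

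In the genome, 8 of the 9 genes lie on chromosome 11 in a pair of groups. Ccl2 (chr11:82035571-82037453), Ccl7 (chr11:82045712-82047525) and Ccl12 (chr11:82101845-82103400) span 67.8 kb on the plus strand. Ccl5, Ccl9, Ccl6, Ccl3 and Ccl4 lie in this order between chr11:83525778 and chr11:83664683, a span of 139 kb, and Ccl4 alone of them is on the plus strand. The groups are 1422 kb apart, and Ccl22 is on chromosome 8 (chr8:94745590-94751699).

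Footprint density, the level per kb of coding sequence averaged over the 3 conditions, was highest for Ccl4 at 24573. Ccl2 followed with 17543, Ccl3 with 10092 and Ccl9 with 9518 normalised fitted values per kb. Ccl7 was intermediate with 3192, and Ccl5 with 388, Ccl12 with 313 and Ccl6 with 158 were far lower. Ccl22 had 8.31 per kb. The ranges over the 9 libraries overlapped between Ccl4 and Ccl2, between Ccl2 and Ccl3 and between Ccl3 and Ccl9, and likewise between Ccl5 and Ccl12 and between Ccl12 and Ccl6. The range of Ccl7 (1754 to 5727) overlapped with neither neighbour, and neither did that of Ccl22 (7.56 to 9.27). Per kb of all exons instead of coding sequence, Ccl7 stood above Ccl9 and Ccl12 above Ccl5, and the sources used here do not say which exon bases were counted.

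**Figure D1:**
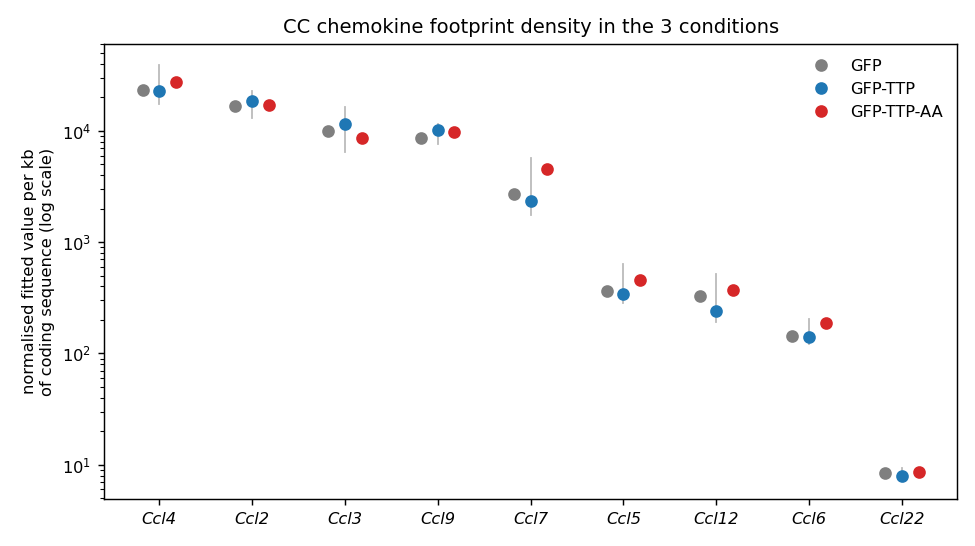
Level per kb of coding sequence (normalised fitted value per kb, log scale) of the 9 CC chemokines in the 3 conditions, with points for the geometric mean of 3 libraries and lines for the range over all 9 libraries. The means run from 24573 for Ccl4 to 8.31 for Ccl22, and Ccl7 with a mean of 3192 lies between the 4 dense and the 4 sparse genes.

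Together the 9 genes took 0.359% ± 0.091 (SD, n = 3) of the summed fitted values with GFP, 0.381% ± 0.095 with wild-type TTP and 0.387% ± 0.096 with the mutant. The SD is that of the replicate numbers, which is shared by the groups, and the share was lowest with GFP and highest with the mutant within each replicate number. These fitted shares were not tested. Within this total, Ccl2 made up 35.6% in GFP-only macrophages and Ccl4 31.0%. In GFP-TTP-AA macrophages Ccl2 and Ccl4 each made up 33.3%, the share of Ccl3 was 10.5% against 14.3% in GFP-TTP macrophages, and that of Ccl7 was 5.76% against 3.06%.

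**Figure D2:**
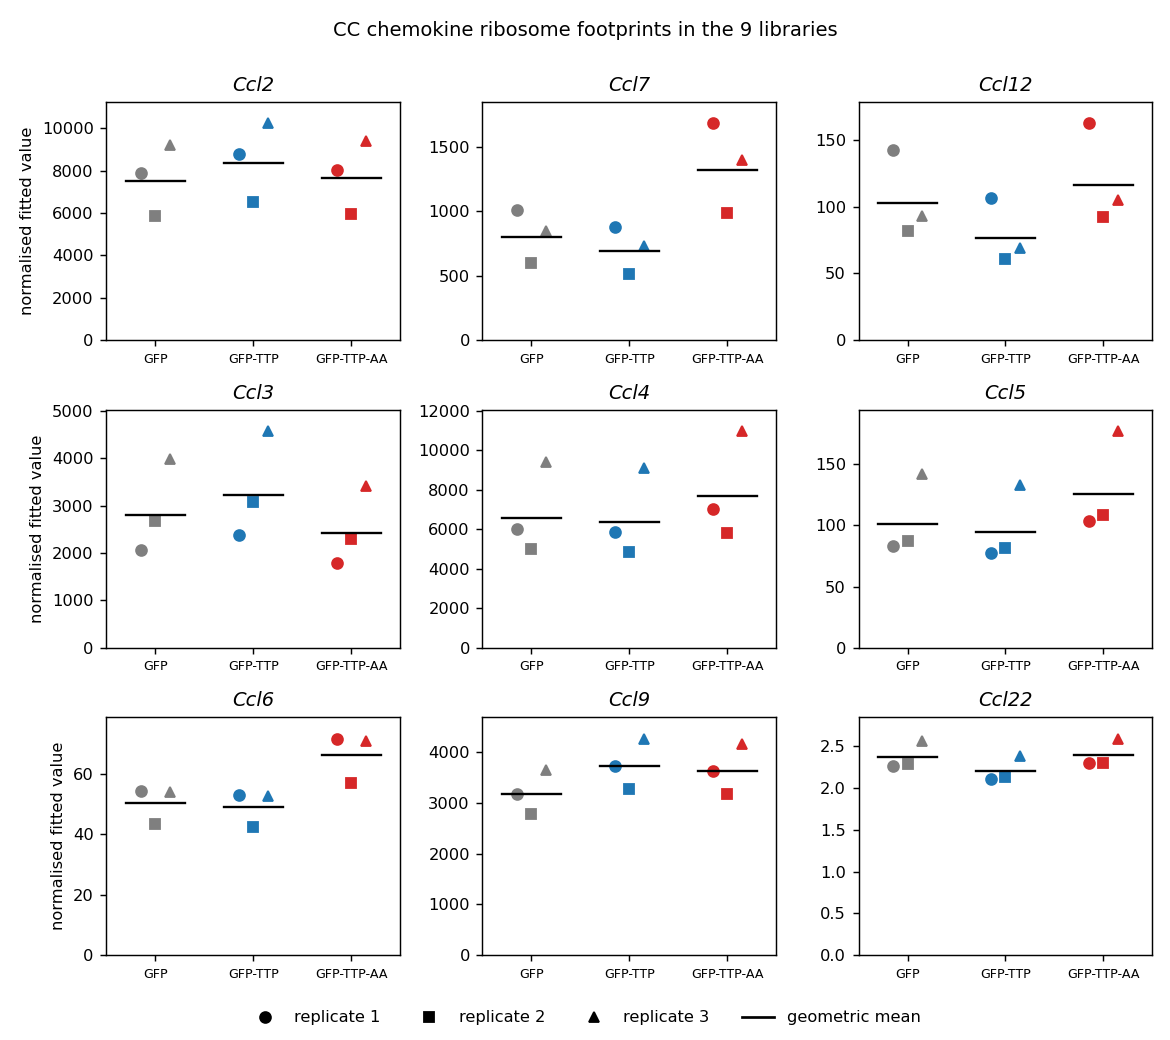
Normalised fitted values of each CC chemokine in the 9 libraries (y axis from 0, its own scale per gene), with symbols for the replicate number and a line for the geometric mean of each group. The 3 GFP-TTP-AA values of Ccl7 (986 to 1684) lie above its 3 GFP-TTP values (516 to 877), and the values of the other abundant genes overlap between groups. Overlap and separation are both set by the fitted condition and replicate terms and are no test.

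Over all 9 libraries the values of Ccl2, the main monocyte chemoattractant, ran from 5846 to 10230, those of Ccl4 from 4846 to 10965 and those of Ccl9 from 2789.6 to 4260.0. Those of Ccl5 ran from 77.7 to 177. In each of these 4 genes the ranges of all 3 groups overlapped. Whether the ranges of groups overlap, here and below, is set by the fitted condition and replicate terms and is no test.

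The first question was whether wild-type TTP changed CC chemokine footprints relative to GFP. None of the 8 tested genes passed the threshold when GFP-TTP macrophages were set against GFP-only macrophages (0 of 8), where 2.1% of 9939 genes passed, 0.815% higher and 1.29% lower. The test was a Wald test, the log2 fold change divided by its SE, with Benjamini-Hochberg adjustment over all genes tested and a threshold of 0.05. At an unadjusted p under 0.05 the count was also 0. On the log2 scale the median of the 8 fold changes was -0.04, beside 0.00 over all genes tested.

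Among the monocyte chemoattractants, Ccl12 had the largest difference in this comparison, with a log2 fold change of -0.43 (SE 0.25, adjusted p = 0.538). Its values in replicates 1 to 3 were 143, 81.9 and 92.7 in GFP-only and 107, 61.0 and 68.8 in GFP-TTP macrophages. The ranges overlapped, and the 95% interval of the log2 difference ran from -0.91 to 0.06. Ccl7 had a log2 fold change of -0.21 (SE 0.17) and Ccl2 of 0.15 (SE 0.17). Of the other genes, Ccl9 had 0.23 (SE 0.17), Ccl3 0.20 (SE 0.14), Ccl4 -0.04, Ccl5 -0.10 and Ccl6 -0.04 on the log2 scale. The 95% interval of Ccl3 ran from -0.06 to 0.47 and the wider one of Ccl4 from -0.52 to 0.44. Ccl22 had levels of 2.37 and 2.20, too low for a comparison.

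The next question was whether TTP that MK2 cannot phosphorylate changed them relative to GFP. Ccl7 rose in GFP-TTP-AA macrophages relative to GFP-only macrophages, and the other 7 genes did not pass (1 of 8), where 3.02% of the 10202 genes tested passed, 1.75% higher and 1.26% lower. The log2 fold changes were above 0 for 7 of the 8 genes, with a median of 0.21 beside 0.01 over all genes tested. Ccl7, a chemoattractant for monocytes, had 1011, 596 and 846 in the GFP-only and 1684, 986 and 1401 in the GFP-TTP-AA libraries in the order of replicates. The GFP-TTP-AA library of replicate 2 lay below the GFP-only library of replicate 1, so that the ranges overlapped, and within each replicate number the fit places the mutant higher by the same factor. The log2 fold change was 0.73 (SE 0.17, adjusted p = 0.00238), which is 1.66-fold.

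The other monocyte chemoattractants differed less, with a log2 fold change of 0.18 (SE 0.25) for Ccl12 and 0.03 (SE 0.17) for Ccl2. Ccl6 had 0.39 (SE 0.25) and Ccl5, which attracts T cells and monocytes, 0.32 (SE 0.21). Ccl4 had 0.22 (SE 0.25) and Ccl9 0.19 (SE 0.17). Ccl3 alone was below 0 with a log2 fold change of -0.22 (SE 0.14, adjusted p = 0.505). None of these 7 differences passed the Wald test, and their 95% intervals all include 0.

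The mutant was also compared directly with wild-type TTP. The constructs differ in the MK2 sites, but the lines and the footprint level of Zfp36 differ too, and these cannot be told apart. By western blot, the authors report similar expression of the GFP-TTP and GFP-TTP-AA proteins. Ccl7 rose and Ccl3 fell in GFP-TTP-AA against GFP-TTP macrophages, so that 1 of 8 genes was called higher and 1 of 8 lower, where 10.3% of the 10202 genes tested passed, 5.64% higher and 4.63% lower. On the log2 scale the median of the 8 fold changes was 0.34 beside 0.00 over all genes, with 5 genes above 0 and 3 below (Ccl9, the nearest to 0, turned with the chromosome median subtracted). The 3 comparisons share libraries, and each log2 fold change here is that of the mutant against GFP minus that of wild-type TTP against GFP, so that it adds no independent measurement.

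Ccl7 had 877, 516 and 730.2 in the GFP-TTP libraries, all below its lowest GFP-TTP-AA value of 986. This separation is set by the fitted condition and replicate terms and is no further support for the difference. Its log2 fold change was 0.94 (SE 0.17, adjusted p = 4.63e-06), which is 1.92-fold with a 95% interval of 0.60 to 1.28 on the log2 scale. By adjusted p it was number 127 of the 10202 genes. The DESeq2 version that the processing notes name shrinks log2 fold changes toward 0, and from its SE the part kept for Ccl7 was estimated at either 13.9% or 86.1%, so that the unshrunken change is larger than the value given. The Wald test is not changed by this.

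Ccl3, which encodes MIP-1 alpha, had 2382, 3086 and 4579 in the GFP-TTP libraries and 1782, 2302 and 3426 in the GFP-TTP-AA libraries. Both groups overlapped widely because replicate 3 was high and replicate 1 low in each. Its log2 fold change was -0.42 (SE 0.14, adjusted p = 0.0265). The 867 other genes of chromosome 11 that were tested had a median of -0.11 in this comparison, and after subtraction of the chromosome median Ccl3 had -0.32 (adjusted p = 0.144) and no longer passed. The part of the chromosome in the value was not tested further.

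Ccl12 had 163, 92.5 and 105 in the GFP-TTP-AA libraries, and these overlapped with its GFP-TTP values. Its log2 fold change of 0.60 (SE 0.25, adjusted p = 0.103) did not pass, and with the chromosome median subtracted it was 0.71 and passed (adjusted p = 0.0460). The Ccl6 values were 57.0 to 71.7 in the GFP-TTP-AA libraries, 42.5 to 53.2 with wild-type TTP and 43.6 to 54.4 with GFP, ranges that do not overlap with the mutant but are set by the fitted replicate term and are no error. Its log2 fold change of 0.43 (SE 0.25, adjusted p = 0.298) did not pass. Nor did Ccl5 with 0.42 (SE 0.21, adjusted p = 0.217) and Ccl4 with 0.27 (SE 0.25, adjusted p = 0.569). Ccl2 with -0.13 (SE 0.17) and Ccl9 with -0.04 (SE 0.17) were near 0, with 95% intervals of -0.45 to 0.20 and -0.36 to 0.29. With the chromosome median subtracted Ccl9 was at 0.07. For the genes that carry 5 ATTTA copies the values were -0.42 for Ccl3, -0.04 for Ccl9 and 0.60 for Ccl12. Of these only Ccl3 passed, and not with the chromosome median subtracted. A relation between ATTTA copies and the fold changes was not tested.

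**Figure D3:**
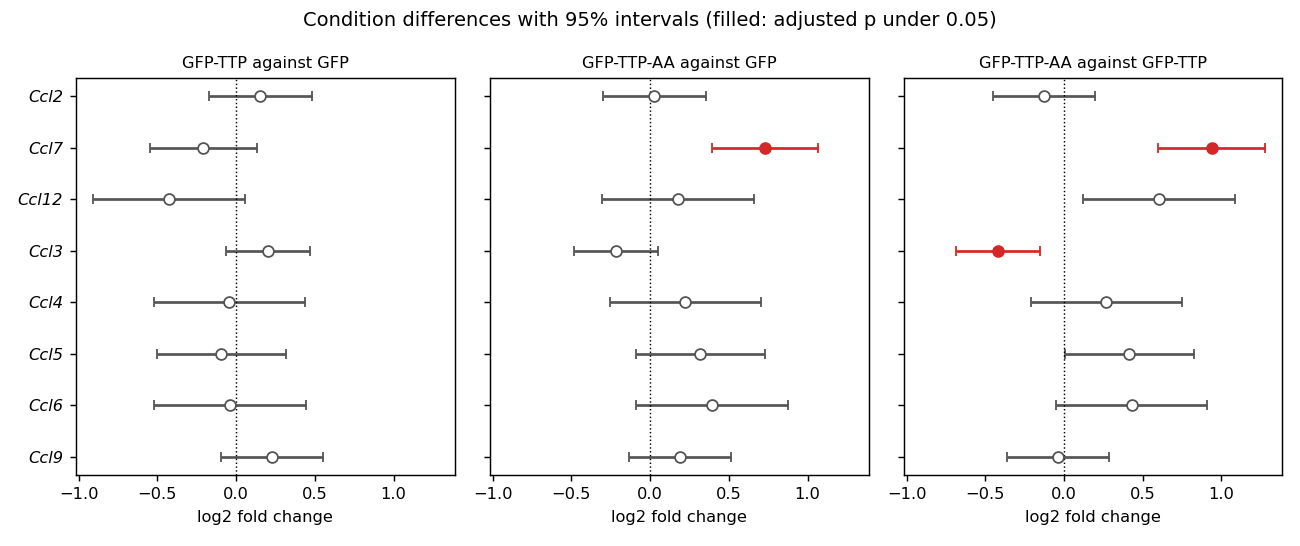
Log2 fold changes of the 8 tested CC chemokines in the 3 comparisons, with bars for the 95% interval and filled points for an adjusted p under 0.05. Ccl7 is filled in both comparisons of GFP-TTP-AA (0.73 and 0.94), Ccl3 only against GFP-TTP (-0.42), and no gene is filled in GFP-TTP against GFP.

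Neighbouring genes were compared as well, since the chemokine genes lie close together. Within 1 Mb of Ccl2, Ccl7 and Ccl12 there were 9 other tested genes whose median between mutant and wild-type TTP was -0.04 on the log2 scale, and 2 of them passed. Around the other group there were 22 with a median of -0.05, and 4 passed. Of all genes tested, 10.3% passed in this comparison. The windows overlap and share genes. Ccl2 and Ccl7, which lie side by side, had log2 fold changes of -0.13 and 0.94.

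Macrophage markers also moved in these comparisons. In GFP-TTP-AA against GFP-TTP macrophages 4 of 9 tested markers rose and 0 fell, beside 5.64% and 4.63% of all genes tested, with a median of 0.33 on the log2 scale. With wild-type TTP against GFP 0 rose and 3 fell, beside 0.815% and 1.29% of all genes. With the mutant against GFP, where Ccl7 was also called, 1 of 9 rose, beside 1.75% of all genes, which was Emr1 with a log2 fold change of 0.54 (SE 0.16, adjusted p = 0.0290). Emr1, which encodes a surface receptor of mature macrophages, rose by 1.22 (SE 0.16, adjusted p = 5.39e-12) and Lyz2, a lysozyme, by 0.63 (SE 0.12) in the mutant against the wild type. Fcgr1, an Fc receptor, rose by 0.72 (SE 0.22) and Spi1, the transcription factor PU.1, by 0.36 (SE 0.12). Of the 9 markers 7 were above 0 in this comparison and 2 below, Itgam at -0.00 and Mrc1 at -0.44, and neither of these 2 passed. The summed marker level ranged from 70352 to 83916 with wild-type TTP, from 88390 to 106616 with GFP and from 100245 to 121697 with the mutant. Most of this sum is Lyz2, with levels of 46028, 64030 and 71358 in the same order. The part of the markers in the difference of Ccl7 was not tested, and in bulk samples fewer cells of a type and less RNA per cell cannot be told apart. Of the neutrophil markers 1 of 4 with a row passed the filter, S100a8, whose level was 27.0 with GFP, 25.6 with wild-type TTP and 55.8 with the mutant. S100a8 rose in both comparisons of the mutant, the same 2 in which Ccl7 rose, by 1.05 (SE 0.25, adjusted p = 0.00235) against GFP and by 1.12 (SE 0.25, adjusted p = 0.000247) against wild-type TTP on the log2 scale. The summed level of these markers ranged from 22.9 to 41.3 with GFP, from 21.7 to 39.3 with wild-type TTP and from 45.5 to 84.0 with the mutant, and its part was not tested either. Of the dendritic cell markers Itgax alone passed the filter, with levels of 7.65 with GFP, 11.0 with wild-type TTP and 8.80 with the mutant. It had no SE in wild-type TTP against GFP and was not tested there. In neither comparison of the mutant did it pass.

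The deposited SE differed among genes of like level. It is that of a shrunken fold change, which has a ceiling (the largest SE was 0.25) and can fall again for noisier genes, so that it does not rank genes by precision. The SE of Ccl4 was 0.25 in GFP-TTP-AA against GFP-TTP, although its mean normalised count over all libraries, as the authors give it, was 7354. Of the 189 genes within 2-fold of that mean, 7 had a larger SE, and the median SE of the 189 was 0.14. Ccl12 had a larger SE than all but 31 of 3352 genes of like level, and Ccl2 than all but 16 of 173. For Ccl3 344 of 735 genes had a larger SE. For Ccl4 the kept part of a change was 39.7% or 60.3%, so that by either solution its unshrunken difference is larger than the one given. The fitted values of Ccl5 averaged 81.7% of the authors' mean count, the lowest share of the 8 genes, where the other 7 had between 95.5% and 100.4%.

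The replicate numbers differed in one direction for the CC chemokines where 2 and 3 are compared. Replicate 3 was above replicate 2 for all 8 tested genes, with a median log2 difference of 0.54 beside -0.00 over all 10202 genes. These terms have no error in the tables and were not tested. The log2 difference was 0.91 for Ccl4, 0.71 for Ccl5, 0.66 for Ccl2, 0.57 for Ccl3, 0.50 for Ccl7, 0.39 for Ccl9, 0.31 for Ccl6 and 0.18 for Ccl12.

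Replicate 1 had no fixed place in this order. Against replicate 1, replicate 3 was higher on the log2 scale by 0.95 for Ccl3, by 0.78 for Ccl5 and by 0.64 for Ccl4, and the differences of Ccl2 and Ccl9 were 0.22 and 0.20. It was -0.63 for Ccl12 and -0.26 for Ccl7. Replicate 2 against replicate 1 was -0.81 for Ccl12 and -0.77 for Ccl7, which placed them at percentiles 0.186 and 0.255 of all genes, and 0.37 for Ccl3. In the fitted values the Ccl7 difference between replicates 2 and 1 was about as large as its difference between the mutant and GFP-only macrophages. Both terms were fitted for all conditions together. The replicate difference has no SE, so that how far shrinkage drew it toward 0 is unknown. The unshrunken sizes may therefore differ.

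**Figure D4:**
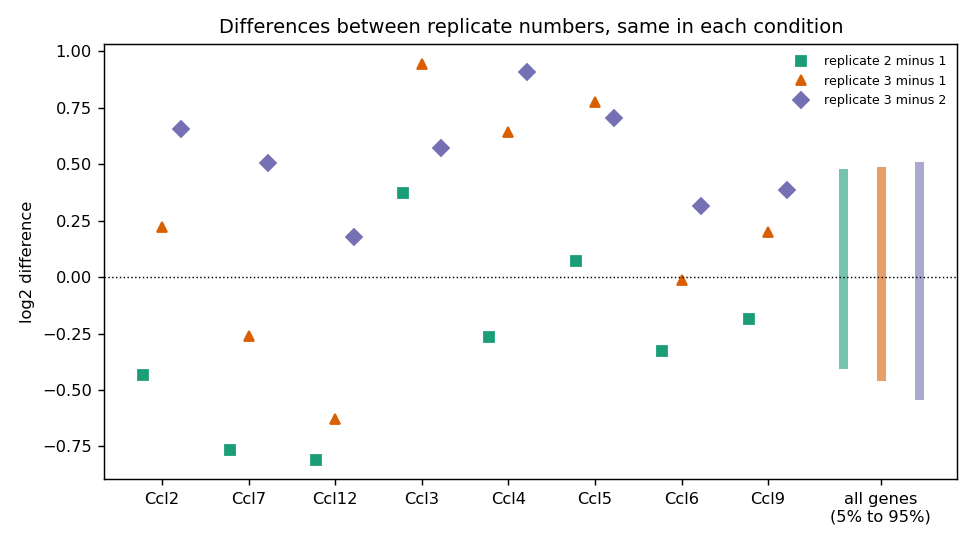
Log2 differences between replicate numbers for the 8 tested CC chemokines, with bars at the right for the range from the 5% to the 95% quantile of all 10202 genes. Replicate 3 minus replicate 2 is above 0 for each gene (0.18 to 0.91), and Ccl7 and Ccl12 have the lowest values of replicate 2 minus replicate 1 (-0.77 and -0.81).

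Genes with a pattern like that of Ccl7 were taken by the Euclidean distance over its 2 condition differences and 2 replicate differences, among 8637 genes with a mean fitted value of at least 50. The nearest were Slc11a1, a metal transporter of the phagosome, at 0.25 and the complement gene C3 at 0.25. Phyh, an enzyme of peroxisomal fatty acid oxidation, followed at 0.26, then Irak3, an inhibitor of Toll-like receptor signalling, and the NAD kinase gene Nadk, at 0.30 and 0.31. Since condition differences entered the distance, like changes follow from the choice, and the log2 fold changes between the mutant and wild-type TTP were between 0.75 (Nadk) and 1.35 (Irak3). Among the chemokines the nearest were Ccl6 at number 94 and Ccl12 at number 177, and the farthest was Ccl3 at number 8541.

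Few of the other genes of the CC system were measurable. Of 15 other CC chemokines 6 had a row and 1 passed the filter, Ccl25, whose log2 fold changes did not pass in any comparison. Of 16 receptors and decoys 9 had a row and 2 passed the filter. Ccr1, a receptor of Ccl3, Ccl5, Ccl6 and Ccl9, had a level of 12.9 with GFP, 17.6 with wild-type TTP and 18.6 with the mutant and did not pass in any comparison. Ccrl2, which binds chemerin, had 477, 340.1 and 567 in the same order and rose in GFP-TTP-AA against GFP-TTP macrophages (log2 fold change 0.74, SE 0.25, adjusted p = 0.0357). Ccr2, the receptor of Ccl2, Ccl7 and Ccl12, had levels of 0.38 to 0.39 and was not tested.

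Of 42 genes of chemokine receptor signalling 39 were tested. With the mutant against wild-type TTP 8 rose and 0 fell, beside 5.64% and 4.63% of all genes tested, and the median was 0.20 on the log2 scale, beside 0.00. The G protein gamma subunits Gng5 and Gng12 rose by 0.86 (SE 0.19, adjusted p = 0.000206) and 0.69 (SE 0.17, adjusted p = 0.00115). With wild-type TTP against GFP 1 of 39 rose, beside 0.815% of all genes tested, which was Prkcb, a protein kinase C, with 1.45 (SE 0.25, adjusted p = 1.75e-06). With the mutant against GFP Prkcb alone passed (1 of 39, beside 3.02% of all genes tested), with a log2 fold change of 1.68 (SE 0.25).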

How the data were processed

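RiboSeq of 9 libraries was used, 3 per condition, grouped by the sample labels. Per the methods and the submitters' processing notes, the authors made libraries with the ARTseq kit, depleted rRNA, trimmed reads with Trim Galore, mapped them to mm10 with TopHat2 (2.0.12 in the notes) with up to 2 alignments per read, counted them per gene with HTSeq and fitted library date and condition with DESeq2 1.6.3. The deposited values are a signal, the fitted value per gene and library, and the comparison tables give a mean normalised count (signal) and a standard error of the log2 fold change, both made by the authors. Their fold change, statistic and p-value columns were not used.

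From 16932 lines, 11 repeated lines were dropped. Size factors were medians of ratios over genes with a mean fitted value of at least 10. A level is the geometric mean of 3 libraries with no pseudocount. Log2 fold changes were divided by the deposited standard errors, with two-sided normal p-values and Benjamini-Hochberg adjustment over all genes tested. A test on replicate spread is not possible with fitted values. Depth in reads is unknown, so that precision is given by the standard errors. The calculation was checked on simulated log2 changes whose normal error had the deposited SE. Shrinkage, counts and the number of replicates were not simulated, so that this check does not bear on them. Tools were Python 3.11.15, numpy 2.4.6, pandas 2.3.3 and scipy 1.17.1. GENCODE vM21 gave positions for 16836 of the 16921 identifiers. The members, lists and tests were chosen with earlier results of these data known. Named were each CC chemokine, Zfp36, up to 4 passing genes per further list with the smallest adjusted p, and the 5 genes nearest in pattern to the member with the smallest adjusted p. Filters, centring, pseudocounts and length were varied. Some genes and sequences that these rules would name are not reported here.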

Additional observations from a re-analysis of the deposited data

How the results depend on the processing

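The counts of CC chemokines past the threshold were recomputed without a filter, with a mean fitted value of at least 50, with the median of the chromosome or of all genes subtracted, with pseudocounts of 1 and 10, and with the 3 comparisons adjusted together. They changed in 1 case. With the chromosome median subtracted, GFP-TTP-AA against GFP-TTP gave 2 genes higher, Ccl7 and Ccl12, and 0 lower, since Ccl3 no longer passed. The median of the chromosome is moved by many genes, and whether it should be removed was not tested. Of 168 member values under these settings, 165 kept direction and side of the threshold. Ccl3 and Ccl12 are the cases above, and Ccl9 in GFP-TTP-AA against GFP-TTP turned from -0.038 to 0.067 with the chromosome median subtracted. The 36 replicate differences recomputed with library sums or centring moved by at most 0.044 on the log2 scale, and 1 turned, that of Ccl22 between replicates 2 and 1, from 0.010 to -0.033 with library sums.

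No paired analysis was possible because the deposited values are fitted with the replicate term and hold no residual. For the same reason the fits without the replicate block and those leaving out 1 library were not run. Read depth is unknown and limits Ccl22 most, which has no standard error.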

Other observations

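CXC chemokines, the other large family, gave 5 genes that passed the filter among 10 with a row. Cxcl16, a transmembrane chemokine, had a level of 56.0 with GFP, 32.6 with wild-type TTP and 209.7 with the mutant, and its log2 fold change was 2.69 (SE 0.22) for the mutant against wild-type TTP and -0.78 (SE 0.22, adjusted p = 0.0280) for wild-type TTP against GFP. Cxcl14 had levels of 8.68, 8.08 and 19.6 in the same order and rose by 1.28 (SE 0.23, adjusted p = 1.97e-06) in the mutant against wild-type TTP. Cxcl2, Cxcl10 and Pf4 did not pass in any comparison. Unlike the CC chemokines, the 5 genes did not all lie above replicate 2 in replicate 3, with 3 above and 2 below. This difference between the families was not tested.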
